A study of Homo sapiens with 6 samples.

Results

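The 45 genes described here encode the enzymes that make serine, pass its carbon unit through folate, use that unit to make S-adenosylmethionine (SAM), and build purine, pyrimidine and deoxynucleotides. They were taken by symbol from the 56638 gene symbols of the count tables, without use of their values, and sorted into 6 branches: serine, folate, SAM, purine, pyrimidine and deoxynucleotide. Earlier results of these data were known when these genes, the lists set beside them and the tests were chosen. RNA-seq was performed on HCT116 cells, an established human colorectal carcinoma line, in 2 groups with 3 samples each. The WT samples carry the label wild type. The METTL3-KO samples are HCT116 cells in which METTL3, the catalytic subunit of the main m6A RNA methyltransferase, was targeted by CRISPR/Cas9 delivered with a lentiviral vector. Both groups were grown in the same serum-containing medium, with no drug treatment named for either, and all samples carry the same passage range. The study's methods describe the METTL3-KO cells as a monoclonal line, isolated after puromycin selection of the transduced cells. No such selection is described for WT. The loss of METTL3, the properties of that clone and the selection then cannot be told apart. The names of the deposited tables use other abbreviations for the groups, NC and SiM3. These do not say knockout and can be read as a negative control and an siRNA against METTL3. The groups therefore rest on the labels. No label says that the samples of a group came from separate cultures, so every p-value below measures only the spread between these samples, which may be technical.

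The carbon unit enters the network when serine hydroxymethyltransferase turns serine into glycine. Folate carries it through a mitochondrial and a cytosolic arm, which supply formyl groups for purine rings, a methylene group for thymidylate and a methyl group for methionine. Methionine adenosyltransferase converts methionine into SAM, the donor used by METTL3 and by most other methyltransferases, and the S-adenosylhomocysteine left over is removed by AHCY. Purine and pyrimidine rings are either built from small molecules or salvaged from free bases and nucleosides, and ribonucleotide reductase turns the resulting ribonucleotides into the deoxynucleotides of DNA. Proliferating tumour cells, colorectal cancers included, are known for high demand on these routes, and thymidylate synthase is a target of chemotherapy in this disease.

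Pairs of reads assigned to genes numbered 20936091 to 30142144 per sample. METTL3 itself, the check of the labels, was counted at 30.6, 30.2 and 29.2 CPM in WT and 7.26, 7.69 and 6.89 CPM in METTL3-KO, with a log2 fold change (METTL3-KO over WT) of -2.04 (SE 0.0906, adjusted p = 1.59e-07). The remaining METTL3 count, 24.3% of WT, does not by itself tell a knockout from a knockdown. The paper reports sequencing and Western blot as its evidence of the knockout, and neither is part of these counts. CPM stands for counts per 1e6 of TMM-scaled library size. All log2 fold changes below are METTL3-KO over WT and come from edgeR (quasi-likelihood test), with p-values adjusted by Benjamini-Hochberg over the 22452 genes tested, and a gene is called lower or higher where the adjusted p is below 0.05. The epithelial genes EPCAM, KRT8, KRT18 and CDH1 had group means from 438 to 5290.3 CPM, and the intestinal factors CDX1 and CDX2 had group means from 2.99 to 7.68 CPM. Of these 6 genes KRT8 (log2 fold change 0.36, adjusted p = 0.0143) and CDH1 (0.23, adjusted p = 0.0396) were higher in METTL3-KO and none was lower, and their part in the values below was not tested. Among markers of leukocytes, fibroblasts and endothelium, PTPRC, CD3E, CD68, COL1A2, COL3A1, DCN, PECAM1 and CDH5 had 0 to 2 counts in each sample, VWF had group means of at most 0.125 CPM, and COL1A1 had group means of 5.42 and 6.99 CPM. The third sample of each group stood apart from the other samples of its group. Over 10071 genes, which are not independent replicates, the deviation from the group mean correlated with log transcript length at r = 0.63 in WT replicate 3 and -0.57 in METTL3-KO replicate 3, with the opposite sign in the remaining samples of each group, so results are also given without the third replicates of both groups.

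Sequences are shown for the members whose regulation is best known at the level of letters. MAT2A, the catalytic subunit of the methionine adenosyltransferase of most tissues, carries hairpins in its 3′ UTR in which METTL16 methylates an adenosine of one 9-base word, and METTL16 is itself a member. The word occurs 5 times in the reference 3′ UTR, on the plus strand of chromosome 2 (GRCh37), beginning 40 to 1350 bases behind the stop codon. Each site is written 5′ to 3′ as DNA with 10 bases on either side, and the capitals mark the word.
MAT2A site 1, chr2:85770925-85770953: tggcgtaggcTACAGAGAAgccttcaagc
MAT2A site 2, chr2:85771712-85771740: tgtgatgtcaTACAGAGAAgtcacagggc
MAT2A site 3, chr2:85771897-85771925: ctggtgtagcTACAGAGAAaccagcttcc
MAT2A site 4, chr2:85772012-85772040: atggcgtaagTACAGAGAAgccatcacct
MAT2A site 5, chr2:85772235-85772263: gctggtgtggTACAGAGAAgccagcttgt
In sites 2 to 5 the first 5 bases shown are the reverse complement of 5 of the first 6 bases behind the word, and in site 1 the 4 bases directly before the word are that of the 4 bases directly behind it, so the word lies between complementary arms in each window. These letters are a description of the reference only; the counts do not measure methylation.

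Promoters are shown for PSAT1, RRM2 and TYMS, the leading members of the serine and deoxynucleotide branches, all of them lower in METTL3-KO cells. Each is 250 bases before to 50 bases after the RefSeq start site (GRCh38.p14), written 5′ to 3′ on the strand of the gene. Capitals mark CCAAT boxes in PSAT1 and RRM2, and in TYMS the word TTTCCCGC of E2F factors, read on the opposite strand.
PSAT1, chr9:78296875-78297174, plus strand: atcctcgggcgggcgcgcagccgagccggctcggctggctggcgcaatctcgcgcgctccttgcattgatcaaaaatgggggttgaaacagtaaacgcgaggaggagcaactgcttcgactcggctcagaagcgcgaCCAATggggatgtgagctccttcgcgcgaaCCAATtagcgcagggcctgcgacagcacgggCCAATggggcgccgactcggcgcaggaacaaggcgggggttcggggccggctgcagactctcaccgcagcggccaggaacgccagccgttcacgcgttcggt
RRM2, chr2:10122489-10122788, plus strand: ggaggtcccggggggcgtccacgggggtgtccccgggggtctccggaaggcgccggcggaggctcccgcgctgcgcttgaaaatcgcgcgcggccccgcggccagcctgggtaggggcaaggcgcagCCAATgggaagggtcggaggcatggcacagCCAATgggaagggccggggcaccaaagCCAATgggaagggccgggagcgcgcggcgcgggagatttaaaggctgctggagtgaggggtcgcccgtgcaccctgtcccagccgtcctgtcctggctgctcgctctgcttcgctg
TYMS, chr18:657403-657702, plus strand: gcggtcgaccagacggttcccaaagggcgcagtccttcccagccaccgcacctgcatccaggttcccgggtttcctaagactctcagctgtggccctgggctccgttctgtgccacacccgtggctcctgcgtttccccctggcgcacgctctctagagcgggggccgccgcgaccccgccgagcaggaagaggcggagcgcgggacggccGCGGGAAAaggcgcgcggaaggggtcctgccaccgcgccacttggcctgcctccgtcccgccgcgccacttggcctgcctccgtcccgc
PSAT1 and RRM2 each held 3 CCAAT boxes. A promoter was found in the table for 40 of the 45 members. On either strand, CCAAT occurred in 17 of these 40 (42.5%) and in 34.6% of the 34943 promoters of the table. It was present in 2 of 2 serine, 4 of 5 folate and 3 of 6 SAM promoters. The purine, pyrimidine and deoxynucleotide branches had it in 2 of 12, 2 of 5 and 4 of 10 promoters. The E2F word TTTCCCGC occurred in 4 members (10%), TYMS, AHCY, MTR and PRPS2, against 1.62% of all promoters. The second E2F word TTTGGCGC occurred in 1 member, DCK, against 0.65%. The E-box CACGTG was found in 8 members (20%) against 7.23%, and the ATF4/CEBP word TGATGNAA in 1 member (2.5%) against 3.62%. A match names letters in this window and says nothing about binding.

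Most of these genes were lower in METTL3-KO than in WT cells. Of the 45 members, 44 could be tested, since NME2 was listed at 0 in all 6 samples. Of the 44, 23 were lower, 1 (IMPDH1) was higher and 20 were not called. Over all genes tested, 13.2% were lower and 13.3% were higher. The median log2 fold change of the 44 members was -0.28, beside -0.02 over all genes tested, and 40 of them had a negative value. In 30 members all METTL3-KO samples were lower than all WT samples, and in 1 member all were higher, beside 20.7% and 20.2% of all genes tested. Summed over the 45 members, WT samples gave 4714, 4542 and 4643 CPM and METTL3-KO samples 3793, 3684 and 3828 CPM, a ratio of 0.813. Members were counted well above the detection limit, from 219 counts for MTHFD2L to 15837 for MAT2A in a single sample. In bulk samples, fewer cells in a given state and less RNA per cell cannot be told apart.

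**Figure D1:**
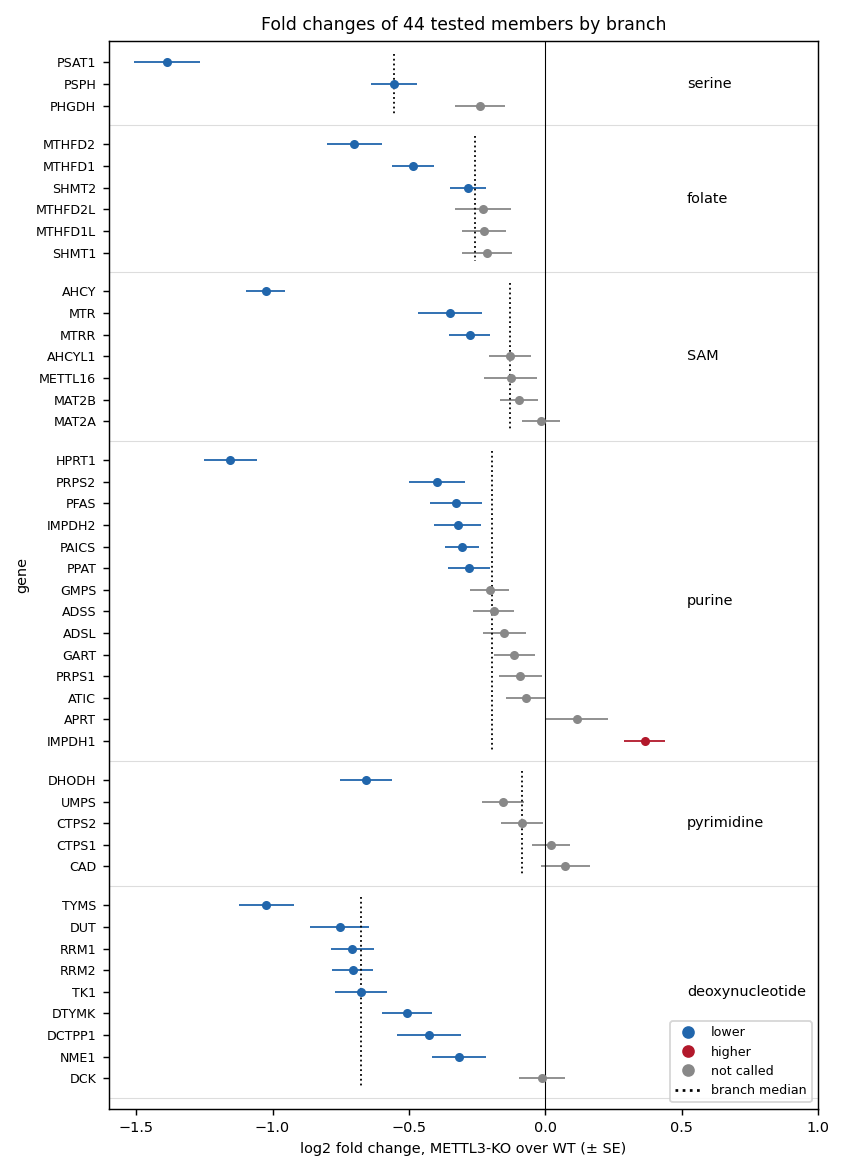
Log2 fold change, METTL3-KO over WT, of the 44 tested members by branch, with bars of ± SE; blue points were called lower, red higher and grey not called, and dotted lines mark the branch medians. The serine and deoxynucleotide medians lie at -0.55 and -0.68, whereas those of SAM and pyrimidine lie at -0.13 and -0.08.

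The branches differed in how many members were lower, beside 13.2% lower over all genes tested. Lower calls covered 8 of 9 tested deoxynucleotide genes (median log2 fold change -0.68), 2 of 3 serine genes (-0.55), 3 of 6 folate genes (-0.26), 3 of 7 SAM genes (-0.13), 6 of 14 purine genes (-0.20) and 1 of 5 pyrimidine genes (-0.08). The summed CPM of a branch in METTL3-KO relative to WT was 0.598 for serine, 0.657 for deoxynucleotide, 0.780 for folate, 0.814 for SAM, 0.913 for purine and 0.970 for pyrimidine. No test was made between branches, whose members are different genes of the same samples. In all, 13 members were called lower with all samples and under all 14 alternatives: PSAT1, PSPH, MTHFD1, MTHFD2, AHCY, HPRT1, DHODH, RRM1, RRM2, TYMS, TK1, DTYMK and DUT. IMPDH1 was called higher under all 14. How many of all genes kept their call under all 14 was not counted. With the replicate block alone these same 13 members were lower, beside 1719 of all 22452 genes tested lower and 1810 higher. The other 10 lower members lost the call under at least 1 alternative, PAICS only with the replicate block (adjusted p = 0.0610). Where leaving out a sample ended a call, the sample is named below. A fit with fewer samples also has less power, so such a loss is not by itself a smaller difference. Of the samples left out 1 at a time, METTL3-KO replicate 2 moved the count most, to 15 lower members. In that fit 1976 of all 21989 genes tested were lower.

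**Figure D2:**
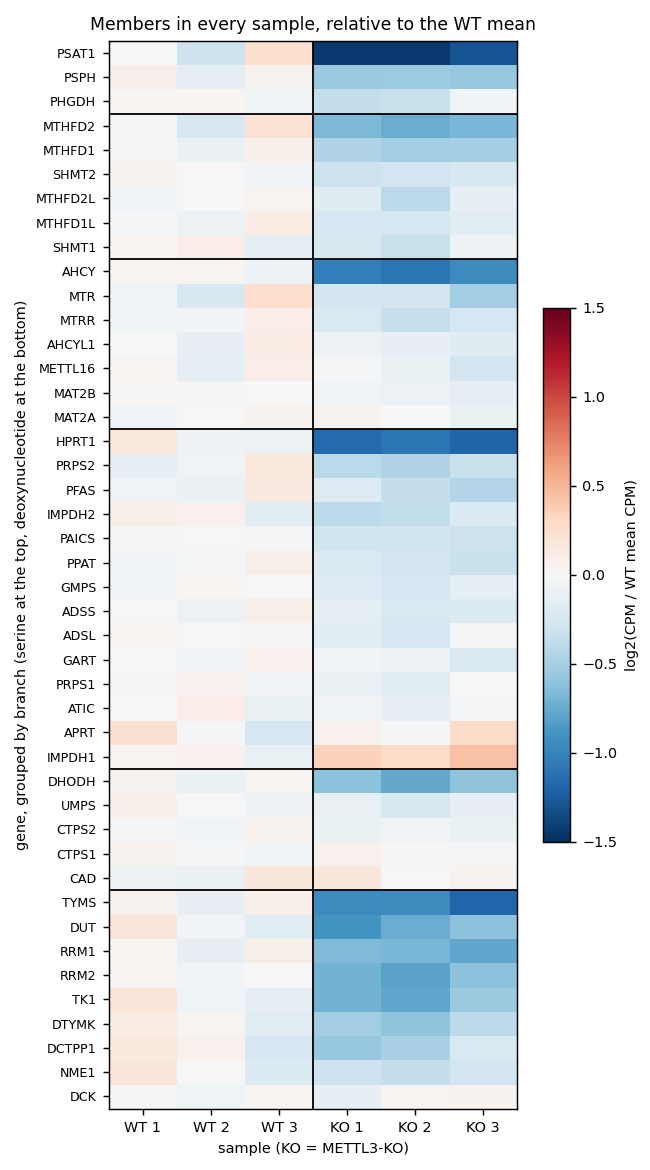
Log2 of each sample's CPM over the WT mean for the 44 tested members (rows, by branch) in the 3 WT and 3 METTL3-KO samples (columns); blue is below and red above the WT mean. PSAT1, AHCY, HPRT1 and the deoxynucleotide genes other than DCK are blue in all METTL3-KO samples, IMPDH1 is red in all of them, and MAT2A, CTPS1 and DCK stay near white.

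In the serine branch, the fall was largest for PSAT1, the aminotransferase of the pathway (chr9:80912041-80945009, plus strand, GRCh37). PSAT1 was counted at 161, 129 and 189 CPM in WT and 59.1, 59.1 and 64.8 CPM in METTL3-KO. The METTL3-KO samples lay close together and below WT samples that spread widely (log2 fold change -1.39, SE 0.120, adjusted p = 9.70e-06). PSPH, the phosphatase that releases serine, was counted at 55.0, 46.6 and 53.7 CPM in WT and 35.2, 35.5 and 35.0 CPM in METTL3-KO, without overlap (log2 fold change -0.55, SE 0.0830, adjusted p = 0.000435). PHGDH, which takes the first step from glycolytic 3-phosphoglycerate, was not called. Its values were 124, 124 and 115 CPM in WT and 94.3, 95.9 and 117 CPM in METTL3-KO, so METTL3-KO replicate 3 reached the WT range (log2 fold change -0.24, SE 0.0906, adjusted p = 0.0724). Without METTL3-KO replicate 3 the log2 fold change of PHGDH was -0.34 (adjusted p = 0.0109), and without WT replicate 3 it was -0.27 (adjusted p = 0.0120).

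In the folate branch, MTHFD2, the mitochondrial dehydrogenase and cyclohydrolase of dividing cells, was lowered most. It was counted at 137, 119 and 162 CPM in WT and 87.1, 83.6 and 86.8 CPM in METTL3-KO, again with tight METTL3-KO samples below spread WT samples (log2 fold change -0.70, SE 0.102, adjusted p = 0.000363). MTHFD1, the cytosolic enzyme that joins the same activities with formyl-tetrahydrofolate synthesis, was counted at 67.1, 61.8 and 70.2 CPM in WT and 48.6, 46.8 and 46.8 CPM in METTL3-KO (log2 fold change -0.49, SE 0.0763, adjusted p = 0.000607). The groups did not overlap for MTHFD1, nor for SHMT2, the mitochondrial serine hydroxymethyltransferase. SHMT2 was counted at 429.8, 414 and 403 CPM in WT and 333, 339 and 352 CPM in METTL3-KO (log2 fold change -0.28, SE 0.0658, adjusted p = 0.00731). Without METTL3-KO replicate 1 the log2 fold change of SHMT2 was -0.26 and its adjusted p 0.0521. The other 3 folate genes were not called. MTHFD1L, the mitochondrial formyl-tetrahydrofolate synthetase, was counted at 47.6, 45.7 and 52.7 CPM in WT and 40.9, 40.5 and 43.6 CPM in METTL3-KO (log2 fold change -0.22, adjusted p = 0.0621). The cytosolic SHMT1 had a log2 fold change of -0.21 (adjusted p = 0.105) with overlapping groups, and without WT replicate 3 it was -0.27 (adjusted p = 0.00966). MTHFD2L, a second mitochondrial dehydrogenase and the least counted folate member, gave -0.23 (adjusted p = 0.129).

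A list of 10 genes of the ATF4 response, the amino acid stress programme known to drive serine and folate enzymes, is given beside these branches. In it 3 genes were lower (ASNS -0.57, CHAC1 -0.79 and VLDLR -0.32 as log2 fold changes), none was higher, and 7 were not called, with a list median of -0.18. Of all genes tested, 13.2% were lower and 13.3% higher, with a median of -0.02. The mRNA of ATF4 itself stood at 512 ± 39.4 CPM in WT and 468 ± 40.5 CPM in METTL3-KO (SD, n = 3 each) (log2 fold change -0.13, adjusted p = 0.291). The part of this response in the serine and folate values was not tested.

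In the SAM branch AHCY, MTR and MTRR, which return the used donor to methionine, were lower, and MAT2A, MAT2B, METTL16 and AHCYL1 were not called. AHCY, the only enzyme known to hydrolyse S-adenosylhomocysteine, the inhibitory by-product of SAM-dependent methylation, was counted at 377, 378 and 347 CPM in WT and 179.9, 171 and 189.8 CPM in METTL3-KO. Its METTL3-KO samples lay close together and far below all WT samples (fold 0.491; log2 fold change -1.03, SE 0.0726, adjusted p = 2.80e-06). MTR, methionine synthase, was counted at 41.2, 36.1 and 50.6 CPM in WT and 35.2, 35.2 and 29.98 CPM in METTL3-KO (log2 fold change -0.35, SE 0.119, adjusted p = 0.0481). The call of MTR was lost without any of WT replicates 1 and 3 and METTL3-KO replicates 1, 2 and 3 (adjusted p from 0.0846 to 0.155), and its log2 fold change was -0.21 without WT replicate 3. With all samples kept, the call was also lost with RLE scaling (adjusted p = 0.0586), with another expression filter (0.0593) and with the replicate block (0.151). MTR kept its call under 5 of the 14 alternatives. MTRR, which keeps methionine synthase active, was counted at 65.4, 66.3 and 73.1 CPM in WT and 58.0, 53.9 and 57.0 CPM in METTL3-KO (log2 fold change -0.28, SE 0.0765, adjusted p = 0.0184). Its call was lost without METTL3-KO replicate 1 (adjusted p = 0.0523) or replicate 2 (adjusted p = 0.0947).

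MAT2A, whose 5 hairpin sites are shown above, was among the most highly counted members and was not called. It was counted at 484, 509 and 526 CPM in WT and 525, 503 and 474 CPM in METTL3-KO, with interleaved samples (log2 fold change -0.02, 95% interval -0.17 to 0.14, adjusted p = 0.886). Its sign changed with the processing. METTL16, the methyltransferase of those sites, was counted at 31.1, 27.4 and 32.4 CPM in WT and 30.02, 28.2 and 24.9 CPM in METTL3-KO (log2 fold change -0.13, 95% interval -0.34 to 0.09, adjusted p = 0.380). MAT2B, the regulatory subunit, gave -0.09 on the log2 scale (95% interval -0.25 to 0.06, adjusted p = 0.359). AHCYL1, an AHCY-related protein, was counted at 199, 181 and 212 CPM in WT and 186, 182 and 174 CPM in METTL3-KO (log2 fold change -0.13, SE 0.0771, adjusted p = 0.253). For these 4 genes a missed threshold does not show equal levels. In the reference annotation 12.5% of the MAT2A exon bases overlap GGCX on the opposite strand.

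**Figure D3:**
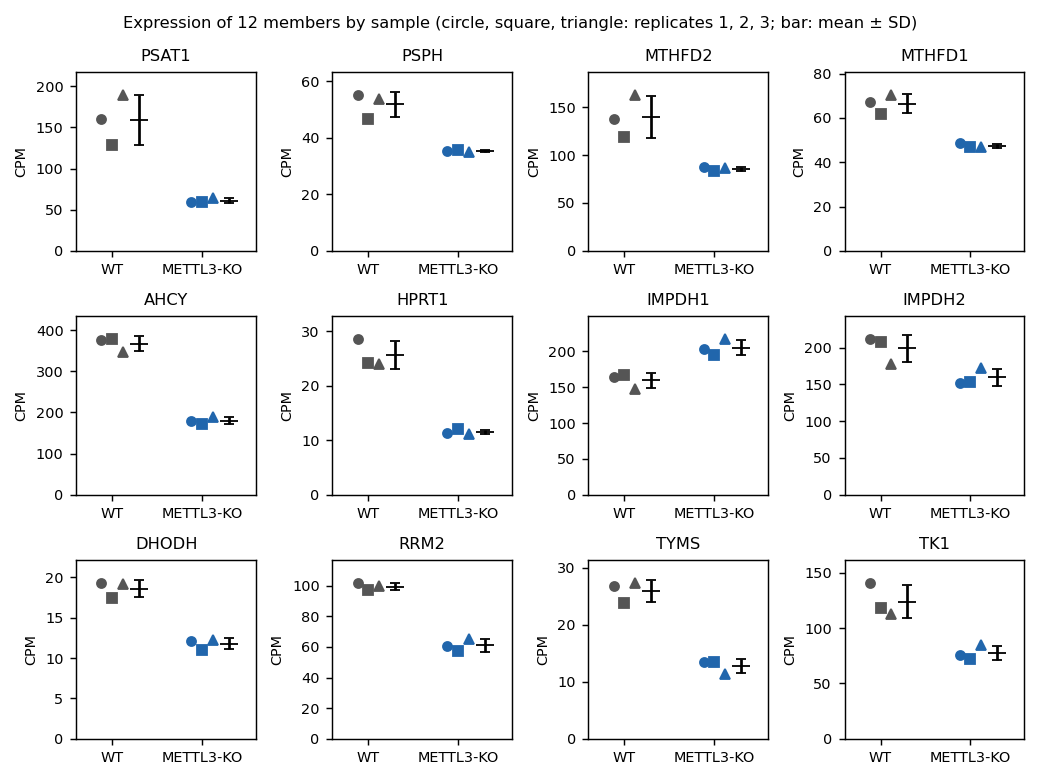
CPM of 12 members in each WT (grey) and METTL3-KO (blue) sample, with circles, squares and triangles for replicates 1, 2 and 3 and bars for the mean ± SD; every axis starts at 0. The METTL3-KO points lie below all WT points in 11 panels and above them for IMPDH1.

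In the purine branch the largest difference was in salvage. HPRT1, which recycles hypoxanthine and guanine (chrX:133594195-133654543, GRCh37), was counted at 28.6, 24.2 and 24.1 CPM in WT and 11.4, 12.01 and 11.2 CPM in METTL3-KO. The groups were far apart (fold 0.449; log2 fold change -1.15, SE 0.0981, adjusted p = 8.89e-06). APRT, the salvage enzyme for adenine, was counted at 129, 109 and 92.9 CPM in WT and 116, 109 and 134 CPM in METTL3-KO, which overlapped (log2 fold change 0.12, adjusted p = 0.503), and its sign turned without the third replicates (-0.09). The enzymes that build the ring differed less. PAICS, a bifunctional enzyme of the middle steps, was counted at 323, 318 and 316 CPM in WT and 259.9, 259 and 256 CPM in METTL3-KO, with very little spread in either group (log2 fold change -0.30, SE 0.0634, adjusted p = 0.00372). PPAT, the committed step, had a log2 fold change of -0.28 (adjusted p = 0.0189), but its call was lost without WT replicate 2 or METTL3-KO replicate 2 or 3 (adjusted p from 0.0511 to 0.0779). PFAS, a further step of ring synthesis, gave -0.33 (adjusted p = 0.0231) and lost its call without METTL3-KO replicate 2 or 3 (adjusted p = 0.0943 and 0.0863). PRPS2, which makes the activated ribose, was counted at 14.5, 15.2 and 17.5 CPM in WT and 11.8, 11.5 and 12.5 CPM in METTL3-KO (log2 fold change -0.40, SE 0.102, adjusted p = 0.0130), and lost its call without METTL3-KO replicate 1 or 2 (adjusted p = 0.0553 and 0.0590). Its paralog PRPS1 was not called (-0.09, adjusted p = 0.429).

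GART, ADSL and ATIC, further enzymes of the route to inosine monophosphate, were not called, with log2 fold changes of -0.11, -0.15 and -0.07. GMPS, the last step to guanosine monophosphate, and ADSS, the step towards adenosine monophosphate, were also not called (-0.20, adjusted p = 0.0524, and -0.19, adjusted p = 0.0867). All METTL3-KO samples of both genes lay below all WT samples, and without WT replicate 3 the adjusted p of GMPS was 0.0277. Inosine monophosphate dehydrogenase, the rate-limiting step towards guanine nucleotides, exists as 2 enzymes whose mRNAs moved in opposite directions. IMPDH1 was counted at 164, 167 and 147 CPM in WT and 203, 196 and 217 CPM in METTL3-KO, so every METTL3-KO sample was higher (log2 fold change 0.36, SE 0.0764, adjusted p = 0.00391). IMPDH2, the form known to be raised in proliferating cells, was counted at 211, 208 and 178 CPM in WT and 152, 154 and 173 CPM in METTL3-KO, without overlap (log2 fold change -0.32, SE 0.0859, adjusted p = 0.0157). The call of IMPDH2 was lost without WT replicate 1 or 2 or METTL3-KO replicate 1 or 2 (adjusted p from 0.0690 to 0.0872). In the reference annotation, 32.8% of the IMPDH2 exon bases are shared with a second gene model on the same strand. That model is not among the counted gene symbols.

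In the pyrimidine branch only DHODH, the mitochondrial enzyme that links ring synthesis to the respiratory chain, was called. It was counted at 19.3, 17.4 and 19.2 CPM in WT and 12.1, 10.96 and 12.2 CPM in METTL3-KO, with no overlap (log2 fold change -0.66, SE 0.0947, adjusted p = 0.000329). CAD, the large protein that carries the first steps, was counted at 86.5, 84.2 and 103 CPM in WT and 102, 90.6 and 94.6 CPM in METTL3-KO (log2 fold change 0.07, SE 0.0896, adjusted p = 0.587). WT replicate 3 was the highest of the CAD values, and without the third replicates of both groups CAD was higher in METTL3-KO (0.18, adjusted p = 0.00267). UMPS, which completes uridine monophosphate, was counted at 49.4, 46.8 and 44.6 CPM in WT and 43.5, 39.9 and 43.1 CPM in METTL3-KO (log2 fold change -0.16, SE 0.0779, adjusted p = 0.171). CTPS2, a CTP synthase, was counted at 30.05, 29.5 and 31.5 CPM in WT and 28.3, 29.3 and 28.4 CPM in METTL3-KO (log2 fold change -0.08, SE 0.0767, adjusted p = 0.464). Its paralog CTPS1 had a log2 fold change of 0.02 (95% interval -0.13 to 0.18).

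In the deoxynucleotide branch all tested genes but DCK were lower. TYMS, thymidylate synthase (chr18:657653-673578, GRCh37), was counted at 26.8, 23.8 and 27.3 CPM in WT and 13.5, 13.4 and 11.4 CPM in METTL3-KO (fold 0.492; log2 fold change -1.02, SE 0.1002, adjusted p = 2.35e-05). ENOSF1 lies on the opposite strand of TYMS and covers 967 bases or 39.9% of its exons. ENOSF1 had more counts than TYMS in every sample and was also lower (log2 fold change -0.67, adjusted p = 0.000286). The strand setting of the counting was not given in the sources used here, so reads of the overlapped part cannot be assigned between both genes with certainty.

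RRM1 and RRM2, the large and the small subunit of ribonucleotide reductase, were both lower, with log2 fold changes that agree to 2 decimals. RRM1 was counted at 142, 128 and 148 CPM in WT and 88.2, 87.0 and 81.4 CPM in METTL3-KO (log2 fold change -0.71, SE 0.0778, adjusted p = 5.20e-05). RRM2, the subunit made in S phase, was counted at 102, 97.0 and 99.7 CPM in WT and 60.7, 57.0 and 65.1 CPM in METTL3-KO (log2 fold change -0.71, SE 0.0752, adjusted p = 4.13e-05). TK1, the S-phase kinase that salvages thymidine, was counted at 141, 118 and 113 CPM in WT and 76.0, 72.2 and 84.4 CPM in METTL3-KO (log2 fold change -0.68, SE 0.0958, adjusted p = 0.000297). No METTL3-KO sample overlapped a WT sample for any of these 3 genes. DUT, which keeps uracil out of DNA by removing dUTP, was counted at 33.9, 29.2 and 26.9 CPM in WT and 16.1, 17.9 and 19.6 CPM in METTL3-KO (log2 fold change -0.75, adjusted p = 0.000335). DTYMK, the kinase that follows TYMS and TK1, was counted at 60.2, 57.2 and 49.7 CPM in WT and 38.7, 36.7 and 42.4 CPM in METTL3-KO (log2 fold change -0.51, adjusted p = 0.00159).

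DCTPP1, a pyrophosphatase of dCTP, was called although the groups overlapped, at 40.3, 38.0 and 30.5 CPM in WT and 24.5, 25.8 and 30.9 CPM in METTL3-KO (log2 fold change -0.43, adjusted p = 0.0186). Its call was lost without WT replicate 1 or 2 or METTL3-KO replicate 1 or 2 (adjusted p from 0.0706 to 0.0957), and ZNF771 covers 41.2% of its exon bases on the opposite strand. NME1, a nucleoside diphosphate kinase, was counted at 38.6, 34.0 and 29.6 CPM in WT and 27.5, 26.6 and 28.2 CPM in METTL3-KO (log2 fold change -0.32, adjusted p = 0.0347). NME1 lost its call without WT replicate 1 or 2 or any single METTL3-KO sample (adjusted p from 0.0605 to 0.161). Its neighbour NME2 was listed at 0 in all samples, and the read-through NME1-NME2, which shares 24.2% of the NME2 and 18.7% of the NME1 exon bases, had 33 to 62 counts, so NME1 and NME2 are uncertain. DCK, the kinase that salvages deoxycytidine, was counted at 28.4, 26.7 and 28.8 CPM in WT and 25.6, 28.8 and 29.0 CPM in METTL3-KO (log2 fold change -0.01, 95% interval -0.20 to 0.17), and its sign changed with the processing.

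Genes of DNA replication are given beside the deoxynucleotide branch. Of a list of 12 S-phase genes, 8 were lower, none was higher and the median log2 fold change was -0.41. Beside this, 13.2% of all genes tested were lower and 13.3% higher, with a median of -0.02. The lower genes were PCNA (-0.40), CDT1 (-0.64) and MCM2 to MCM7, from -0.67 for MCM2 to -0.29 for MCM3. CDC6, CCNE1, CCNE2 and E2F1 were not called, with log2 fold changes from -0.26 to 0.17. The share of cells in S phase was not measured, and its part in the deoxynucleotide values was not tested.

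Related enzymes were then compared within each sample, where the ratio of 2 genes does not depend on scaling between libraries. The comparison covered 9 pairs, with a two-sided exact permutation test, in which 3 against 3 samples cannot give a p below 0.1. The log2 ratio of counts of IMPDH2 to IMPDH1 was 0.37, 0.31 and 0.28 in WT and -0.42, -0.35 and -0.33 in METTL3-KO, a difference of -0.68 (exact p = 0.1, Benjamini-Hochberg 0.129 over 9 pairs). The ratio of AHCY to AHCYL1 went from 0.90 ± 0.18 in WT to -0.00 ± 0.11 in METTL3-KO (SD, n = 3 each, exact p = 0.1), a difference of -0.90. MTHFD2 to MTHFD2L differed by -0.45, PRPS1 to PRPS2 by 0.30, MTHFD1L to MTHFD1 by 0.26, CTPS1 to CTPS2 by 0.10 and MAT2A to MAT2B by 0.08, each with the same smallest exact p of 0.1 and without overlap between groups. None of these 7 differences passed 0.05, which the design does not allow. The separation was narrow for MAT2A to MAT2B, with 2.984 as the highest WT and 2.988 as the lowest METTL3-KO log2 ratio. How many other gene pairs separate the groups was not counted. Of single genes tested, 20.7% had all METTL3-KO samples below all WT samples and 20.2% had them above. SHMT2 to SHMT1 differed by -0.07 (exact p = 0.5) and RRM2 to RRM1 by -0.00 (exact p = 1), and in both pairs the groups overlapped.

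**Figure D4:**
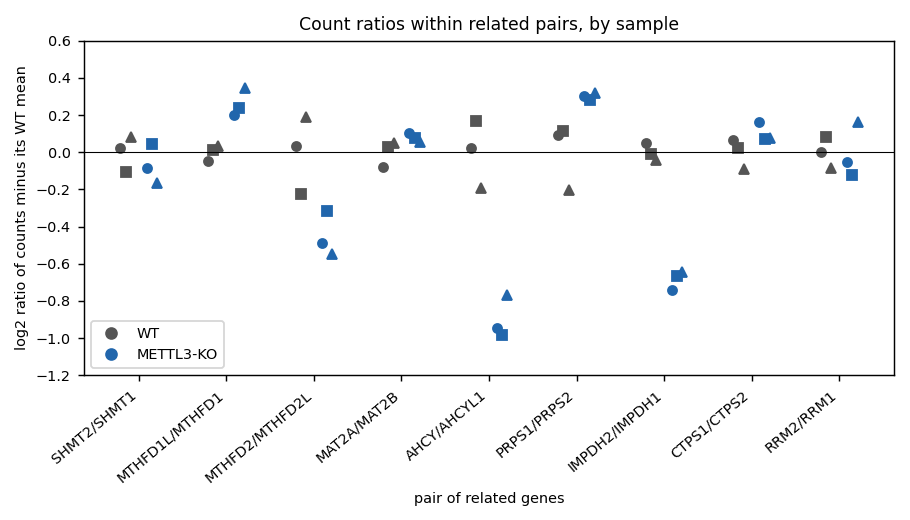
Log2 ratio of counts within each of 9 pairs of related genes, minus the WT mean of that pair, in each WT (grey) and METTL3-KO (blue) sample; circles, squares and triangles are replicates 1, 2 and 3. METTL3-KO points lie clearly below WT for AHCY/AHCYL1 and IMPDH2/IMPDH1 and mix with WT for SHMT2/SHMT1 and RRM2/RRM1.

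Levels of different genes were set side by side per kilobase of exon, with 3 definitions of length. In WT cells the order was the same under all 3 definitions for 6 of the 9 pairs. The level per length of SHMT2 was 5.67 to 10.7 times that of SHMT1, that of MTHFD2 was 5.15 to 9.04 times that of MTHFD2L, and that of MAT2A was 5.60 to 14.8 times that of MAT2B. AHCY exceeded AHCYL1 by 2.41 to 3.41 times, PRPS1 exceeded PRPS2 by 2.36 to 3.46 times and RRM1 exceeded RRM2 by 1.46 to 3.04 times. For MTHFD1L and MTHFD1, IMPDH2 and IMPDH1, and CTPS1 and CTPS2 the order depended on the length used.

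The other genes of these pathways, 81 in all, included genes called in either direction. Of the 78 tested, 13 were lower and 9 were higher, beside 13.2% lower and 13.3% higher over all genes tested, and their median log2 fold change was -0.03. These counts changed with single samples left out: 22 were lower without WT replicate 3, 8 were lower without METTL3-KO replicate 2, and 5 were higher without METTL3-KO replicate 1. The counts over all genes moved the same way. In the first of these fits 3793 of 21923 genes were lower, and in the second 1976 of 21989. In the third, 2188 of 21798 genes were higher. RRM2B, NME4, CDA, CMPK1, AMPD3, GDA, ODC1, AHCYL2, GGH, SLC1A4 and SDSL were named by rule, and the other called genes below are named after their values were seen. In the deoxynucleotide branch RRM2B, the alternative small reductase subunit, was counted at 22.0, 21.0 and 27.5 CPM in WT and 14.3, 14.6 and 12.8 CPM in METTL3-KO (log2 fold change -0.76, adjusted p = 0.000469). NME4, a mitochondrial nucleoside diphosphate kinase, was lower as well (-0.72, adjusted p = 0.00118), as were TK2, NUDT1 and NME7 (-0.44, -0.32 and -0.42), and none of the 14 genes of this branch was higher.

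In the pyrimidine branch, 3 of the 10 other genes tested were higher and none was lower, beside the same 13.3% and 13.2% over all genes. CDA, cytidine deaminase, was counted at 5.06, 4.51 and 2.95 CPM in WT and 16.5, 16.5 and 18.3 CPM in METTL3-KO (fold 4.04; log2 fold change 2.01, SE 0.156, adjusted p = 4.88e-06), the largest change among the called genes of the list. CMPK1, the kinase of UMP and CMP, was counted at 177, 181 and 175 CPM in WT and 243, 249 and 252 CPM in METTL3-KO (log2 fold change 0.48, adjusted p = 0.000216). DPYD, which degrades pyrimidines, was also higher (0.36). In the purine branch AMPD3, an AMP deaminase, was lower (-0.41, adjusted p = 0.00687) and GDA, guanine deaminase, was higher (0.23, adjusted p = 0.0254). The call of GDA was lost without WT replicate 1 or 2 or METTL3-KO replicate 1 or 2 (adjusted p from 0.0754 to 0.114).

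In the SAM branch the polyamine enzyme ODC1 was lower at 201, 185 and 203 CPM in METTL3-KO against 279, 283 and 282 CPM in WT (log2 fold change -0.52, adjusted p = 0.000175). SMS, spermine synthase (-0.34), and MRI1 of methionine salvage (-0.72) were lower, whereas AMD1, SAM decarboxylase (0.37), and AHCYL2, another AHCY relative (0.46, adjusted p = 0.00209), were higher. In the folate branch GGH, which trims the glutamate tail of folates (-0.57, adjusted p = 0.00302), and ALDH1L2, a mitochondrial folate enzyme (-1.07, at 9 to 34 counts), were lower. MTFMT, which formylates the mitochondrial initiator tRNA, was higher (0.38). In the serine branch SLC1A4, a neutral amino acid transporter, was lower (-0.75, adjusted p = 0.000533). SDSL, a serine dehydratase-like enzyme, was higher (0.53, adjusted p = 0.0495) with overlapping groups, and its call was lost without WT replicate 1 or any single METTL3-KO sample (adjusted p from 0.0588 to 0.188).

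Without the third replicates of both groups, 32 members were lower, 22 of them among the 23 of the fit of all samples, and 2 were higher (IMPDH1 and CAD). In the same fit 22.7% of all genes tested were lower and 21.4% were higher, so more calls were made throughout. The exception among the 23 was MTR (log2 fold change -0.14, adjusted p = 0.0770). The 10 additional lower members were PHGDH, SHMT1, MTHFD1L, MTHFD2L, PRPS1, ADSL, ATIC, GMPS, ADSS and UMPS, from -0.14 for ADSS to -0.38 for PHGDH. PSAT1, AHCY, HPRT1 and TYMS kept log2 fold changes of -1.30, -1.10, -1.19 and -0.92 with 2 samples per group. Correction of the counts for transcript length and GC content gave 26 lower members, with all 23 among them, and 16.8% of all genes were lower in that fit.

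**Figure D5:**
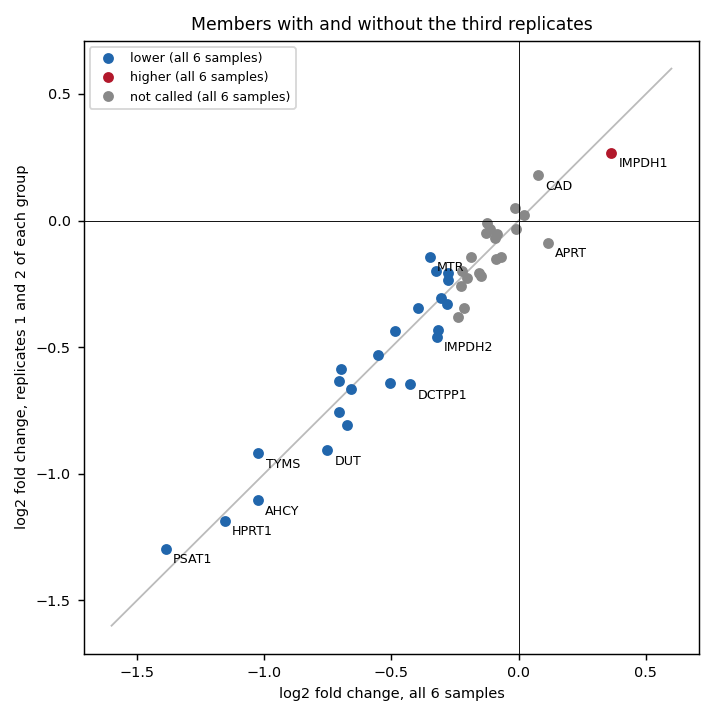
Log2 fold change of each of the 44 tested members from all 6 samples (x axis) against that from replicates 1 and 2 of each group only (y axis); colours give the call in all 6 samples and the grey line marks equal values. Points follow the line, with APRT at 0.12 and -0.09 on opposite sides of 0.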

How the data were processed

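RNA-seq of 3 WT and 3 METTL3-KO samples of HCT116 cells was analysed, and no sample was left out or pooled. The authors mapped paired-end Illumina reads to hg19 with TopHat2 2.0.11, using an Ensembl GRCh37 transcript index, and the deposited values are raw counts of read pairs per gene symbol from HTSeq in union mode. The HTSeq version and strand setting were not given in the sources used here. Union mode leaves pairs in overlapping genes uncounted (7.95 to 8.77% per sample of the assigned and unassigned pairs), as well as pairs without a unique position (13.4 to 14.7%). The counters of unassigned pairs stayed out of library sizes and tests. The names of the deposited tables differ from the labels in the WT replicate numbers and in their abbreviations for both groups, which do not say knockout, and the labels were followed.

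Counts were fitted in edgeR 4.0.16 (R 4.3.3) by the quasi-likelihood test with TMM scaling and group as the only term, after genes with fewer than 5 counts in total in both conditions were removed. This left 22452 genes, over which p-values were adjusted by Benjamini-Hochberg, and the biological coefficient of variation was 0.0907. SE is the log2 fold change divided by the root of its F statistic. The scripts were tested on simulated data with known changes. DESeq2 1.42.0, RLE scaling, other filters, the replicate block, length and GC corrections, and left-out samples were the alternatives. Exon lengths and overlaps came from a GRCh37 annotation other than the authors' own. Promoters came from RefSeq.

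The members, lists and tests were chosen with earlier results of these data known. All members are reported. Full values were given for METTL3 and for up to 4 members per branch with the smallest adjusted p, and of the other pathway genes up to 2 called per branch were named; some listed genes are not reported here. Intervals cover the spread between these samples only.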

Additional observations from a re-analysis of the deposited data

How the results depend on the processing

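The samples of equal number in the labels did not deviate together (correlations of -0.58, -0.39 and -0.78). Deviations within a group depend on each other and correlated with transcript length. These correlations therefore cannot decide whether samples of equal number share a batch. Of samples of unequal number, WT replicates 1 and 2 deviated with METTL3-KO replicate 3 (0.72 and 0.63) and WT replicate 3 with METTL3-KO replicates 1 and 2 (0.66 and 0.51), and no other pairing was fitted. With the replicate block, 13 members were lower (all among the 23; the 10 lost had adjusted p from 0.0530 to 0.151, PAICS 0.0610) and 1 was higher, and 6 other pathway genes were lower and 5 higher. Of all 22452 genes tested, 1719 were lower and 1810 higher with the replicate block. Without 1 sample at a time, 15 to 25 members were lower, and 8 to 22 other pathway genes were lower and 5 to 11 higher. Over all genes, these fits gave 1976 to 3793 lower and 2188 to 3809 higher. Without the third replicates of both groups, 2 members were higher, and 27 other pathway genes were lower. Over all genes, 21.4% were higher and 22.7% lower in that fit. DESeq2 called the same 23 members lower. The median log2 fold change of the members was -0.25 with the length and GC correction, -0.25 without the third replicates and -0.28 to -0.24 without 1 sample, that of the folate branch -0.34 without the third replicates, and that of the deoxynucleotide branch -0.70 to -0.57 without 1 sample.

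The sign changed for 4 values near 0. MAT2A gave 0.000365 with the length and GC correction, 0.000128 with the replicate block added, -0.049 to 0.024 without 1 sample and 0.049 without the third replicates. DCK gave 0.036 with the length and GC correction, with or without the replicate block, and -0.042 to 0.049 without 1 sample. APRT gave -0.087 without the third replicates. The log2 ratio of RRM2 to RRM1 differed by -0.0855 to 0.057 without 1 sample. The causes were not tested. No METTL3-KO monoclonal line other than this one and no measurement of methylation, RNA stability or cell cycle entered, and differences under about 0.2 on the log2 scale were mostly not called at this depth and number of samples.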
